A study of Mus musculus with 10 samples.

Results

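Oligodendrocyte precursor genes were examined in whole hippocampus of mice that differed in exploration of an open field. The genes were Olig1, Olig2, Sox10, Pdgfra, Cspg4, Cspg5, Gpr17 and Ptprz1. They were represented by all 15 probe sets that the platform annotation assigned to exactly 1 symbol among these 8, out of 45037 probe sets besides controls. The High Exploration group held 5 mice and the Low Exploration group held 5 mice. All were inbred female Balb c/J mice from Jackson that shared a birth date, and the labels name no allele or agent that separated the groups. The comparison asks whether these genes differ in expression between genetically alike mice that explore more and mice that explore less. Mice were ranked on a composite of open-field measures averaged over days, and the groups were named for high and low composite exploration. Behavioral testing began in young adulthood, and the age at dissection is not given in the sources used here. Each mouse had its own Affymetrix whole-genome mouse array, and the mouse is the unit of replication in every test below. The limma error combines a probe set's spread between mice within groups with the spread over all probe sets in the fit.

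Oligodendrocyte precursors are dividing glia of the adult brain that give rise to myelinating oligodendrocytes. Olig2 and Sox10 specify and maintain the lineage, Olig1 assists its maturation, and platelet-derived growth factor acting on PDGFRα, the product of Pdgfra, drives the proliferation and survival of the precursors. The chondroitin sulfate proteoglycan NG2, encoded by Cspg4, marks the same cells, and Gpr17 marks precursors that have begun to differentiate. Several of these genes are also used elsewhere: Cspg4 in pericytes, Pdgfra in meningeal and perivascular fibroblasts, Ptprz1 in astrocytes and Cspg5 in neurons.

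The values were MAS 5.0 signals, a linear intensity per probe set and array, and differences are given as log2 High Exploration minus log2 Low Exploration. A signal was not compared between probe sets, since each has its own hybridization behavior. Of the 15 probe sets, 9 (from 6 genes) had a mean log2 signal above the median of all probe sets, 7.43, and entered the main limma test among 22518 probe sets. The other 6, which include the sole probe sets of Olig2 and Gpr17, lay below that median and were tested with limma in a fit over all 45037 probe sets.

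None of the 15 probe sets passed the threshold of 0.05 on limma's adjusted p. Over all 22518 probe sets tested, 0.0% passed as higher and 0.0133% (3 probe sets) passed as lower in High Exploration mice, and in the fit over all 45037 probe sets 0.0711% passed in either direction. At an unadjusted limma p under 0.05, 2 of the 9 tested member probe sets were higher (Olig1 and 1 of Ptprz1), against 9.67% of all tested probe sets. A further 2 of the 9 were lower (1 of Sox10 and 1 of Cspg4), against a background of 20.5%. The High and Low Exploration mice overlapped for all 15 probe sets, whereas the groups did not overlap for 8.83% of all tested probe sets and for 6.01% of all 45037. Among the 9 tested, 6 had a positive and 3 a negative difference, with a median of 0.27, against −0.31 for all tested probe sets. That median did not hold its sign: it was −0.0056 without Low Exploration replicate 1, −0.04 without Low Exploration replicate 4, 0.64 without High Exploration replicate 3 and 0.81 with each array centered on its median. Over all 15 in the fit without the filter, 6 were positive and 9 negative, with a median of −0.29 against −0.47 for all 45037. Neither reference median was matched for signal level, and the 9 tested lay at the 58.5 to 96.5 percentiles of mean signal. The same limit applies where the lists below are set against all tested probe sets. In whole tissue, fewer cells of a type and less RNA per cell cannot be told apart.

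**Figure D1:**
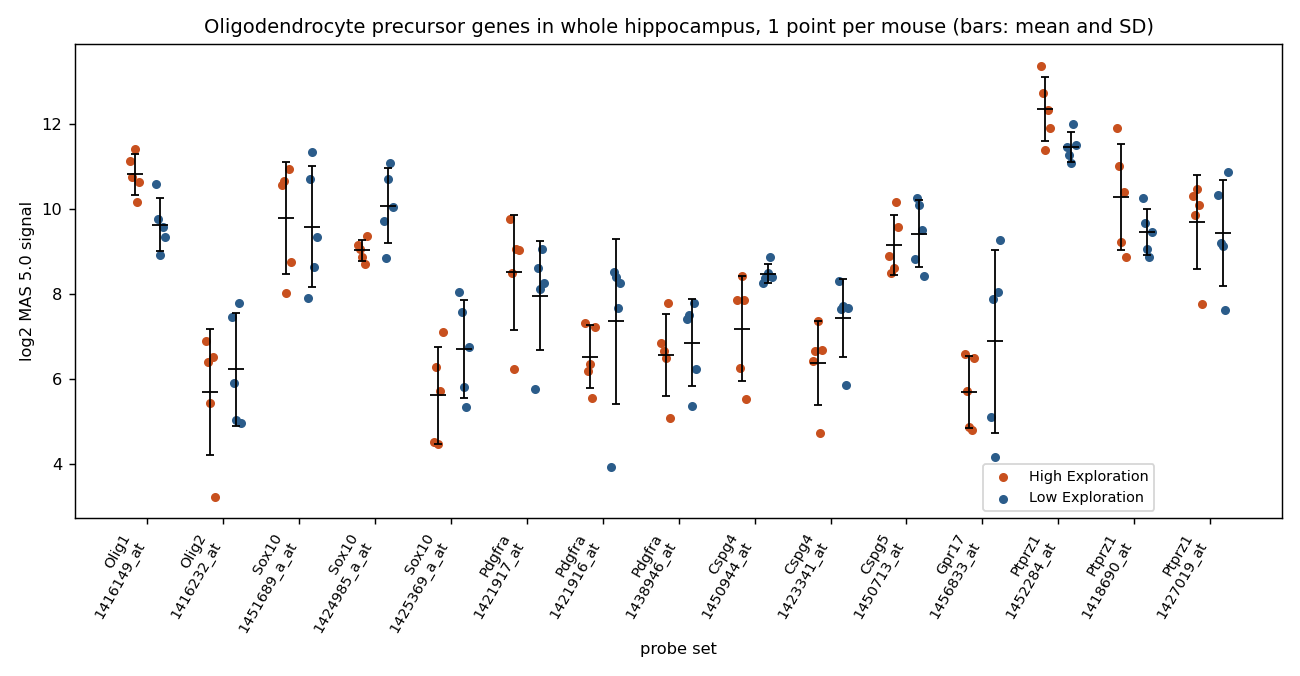
Log2 MAS 5.0 signal (vertical axis) of the 15 probe sets (horizontal axis), with High Exploration mice in orange to the left and Low Exploration mice in blue to the right, 5 mice each; long ticks and bars give the mean and SD. For Olig1, 4 of 5 High Exploration mice lie above all Low Exploration mice, and the Gpr17 values spread more widely in Low Exploration (SD 2.15 log2) than in High Exploration mice (SD 0.85 log2).

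The arrays differed between the groups in ways that bear on all of these values. Each array had a 2% trimmed mean of 500, but the median signal was 142.5 to 204.9 in High Exploration arrays and 226.8 to 272.3 in Low Exploration arrays. The spiked hybridization controls averaged 13.63 ± 0.31 log2 in High Exploration and 14.24 ± 0.29 log2 in Low Exploration arrays (SD, n = 5 each, exact permutation p = 0.0159, adjusted p = 0.0212), and the poly-A controls 12.49 ± 0.47 and 14.12 ± 0.44 log2 (adjusted p = 0.0212, exact permutation p = 0.00794, the smallest that the exact test allows with 5 arrays per group). For Gapdh, 3′ over 5′ probe sets gave a log2 ratio of 4.72 ± 0.48 in High Exploration arrays and 3.72 ± 0.23 in Low Exploration arrays (exact permutation p = 0.0159, adjusted p = 0.0212), and for Actb the ratio was 5.30 ± 0.58 and 4.97 ± 0.75 (exact permutation p = 0.484, adjusted p = 0.484). The median difference over all tested probe sets was −0.31 as deposited, 0.23 after centering each array on its median and 0.30 after setting the hybridization controls equal. Each member's difference is therefore also given with median centering. The part of RNA quality and scaling in them was not tested.

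Among the transcription factors, Olig1 (probe set 1416149_at) showed the smallest p of the members. This basic helix-loop-helix factor had signals of 2254, 1732, 2715, 1149 and 1589 in High Exploration replicates 1 to 5, against 1536, 876, 483, 764 and 650 in Low Exploration replicates 1 to 5. All High Exploration mice but replicate 4 exceeded every Low Exploration mouse, and Low Exploration replicate 1 was the sole mouse of its group within the High Exploration range. The means were 10.82 ± 0.48 and 9.64 ± 0.62 log2 (SD, n = 5 each), a difference of 1.18 (SE 0.39) or 2.27-fold, with a limma adjusted p = 0.0839. By rank within each array, Olig1 lay between the 88.5 and 94.4 percentiles in High Exploration and between the 70.8 and 91.6 percentiles in Low Exploration mice. With median centering the difference was 1.72 (adjusted p = 0.0498), and with limma array weights it was 1.28 (adjusted p = 0.0462). Among the 17 alternatives recomputed for member probe sets, these are the only settings under which a member passed. Genes of the lists below passed in them too, 9 of 120 with median centering and 8 of 120 with array weights. The share of all tested probe sets that passed in these settings is not given here. With each mouse left out in turn, the Olig1 difference was 1.00 to 1.42, with no adjusted p under the threshold.

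Olig2, the lineage-specifying neighbor of Olig1 on mouse chromosome 16, had a probe set (1416232_at) with low signals. They were 119, 85.0, 43.9, 91.9 and 9.43 in High Exploration mice, against 178, 60.3, 32.8, 221 and 31.3 in Low Exploration mice. The groups overlapped, with the lowest value in High Exploration replicate 5 and the highest in Low Exploration replicate 4. The means of 5.71 ± 1.48 and 6.24 ± 1.33 log2 gave a difference of −0.53 (SE 0.78, limma adjusted p = 0.709 in the fit without the filter). The sign was not stable: it was 0.09 without High Exploration replicate 5 and 0.00462 with median centering.

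Sox10, the high-mobility-group factor that acts with Olig2 and activates myelin genes, had 3 probe sets that differed in sign. Probe set 1451689_a_at gave signals of 1524, 1632, 260, 1966 and 431 in High Exploration mice, against 242, 1673, 2586, 400 and 650 in Low Exploration mice. Each group thus contained both high and low mice, and the SD within groups, 1.37 log2, was above the median of 0.63 log2 for probe sets of similar mean. The difference was 0.20 (SE 0.73, limma adjusted p = 0.866), and 0.74 with median centering. It turned negative when replicate 2 or 4 of the High Exploration group, or replicate 1 or 4 of the Low Exploration group, was left out, down to −0.22.

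Probe set 1424985_a_at of Sox10 gave signals of 568, 532, 467, 422 and 665 in High Exploration mice, against 841, 462, 1680, 2191 and 1064 in Low Exploration mice. The High Exploration values lay close together, and 4 of 5 Low Exploration mice exceeded all of them. The means were 9.03 ± 0.25 and 10.09 ± 0.88 log2, a difference of −1.05 (SE 0.42, limma adjusted p = 0.120). The difference was −0.52 with median centering. The third Sox10 probe set, 1425369_a_at, ranged over 22.3 to 138 in High Exploration and 40.7 to 268 in Low Exploration mice, a difference of −1.09 (SE 0.66, limma adjusted p = 0.348 in the fit without the filter). It was −0.55 with median centering. The platform annotation gives this probe set the same source sequence as 1451689_a_at.

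Among the receptors, Pdgfra, the receptor for the precursor mitogen, also had probe sets of both signs. Probe set 1421917_at gave signals of 869, 360, 75.5, 532 and 524 in High Exploration mice, against 54.3, 396, 281, 536 and 306 in Low Exploration mice. Low Exploration replicate 1 was the lowest of the 10 mice and High Exploration replicate 3 the next lowest, with the other mice of both groups intermixed. The means were 8.52 ± 1.35 and 7.97 ± 1.29 log2, a difference of 0.55 (SE 0.70, limma adjusted p = 0.608), which became −0.0056 without Low Exploration replicate 1 and 1.08 with median centering.

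Probe set 1421916_at of Pdgfra, annotated to the same source sequence, gave signals of 161, 72.9, 82.6, 46.8 and 150 in High Exploration mice, against 15.3, 368, 338, 204 and 310 in Low Exploration mice. Except for replicate 1, which was again the lowest of all, every Low Exploration mouse exceeded all High Exploration mice. The means were 6.53 ± 0.75 and 7.36 ± 1.94 log2, a difference of −0.83 (SE 0.81, limma adjusted p = 0.559 in the fit without the filter). It was −1.68 without Low Exploration replicate 1 and −0.29 with median centering. The third probe set, 1438946_at, covered 34.2 to 220.4 in High Exploration and 41.6 to 222 in Low Exploration mice, a difference of −0.29 (SE 0.60, limma adjusted p = 0.799 in the fit without the filter) that was 0.25 with median centering.

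Gpr17, a G protein-coupled receptor of precursors committed to differentiation, was measured by probe set 1456833_at. Its signals were 96.2, 53.4, 29.4, 28.1 and 90.7 in High Exploration mice, against 34.6, 237, 17.9, 265 and 617 in Low Exploration mice. The Low Exploration mice fell apart into 3 above every High Exploration mouse and 2 (replicates 1 and 3) within or below that range. The means were 5.70 ± 0.85 and 6.90 ± 2.15 log2, a difference of −1.19 (SE 0.89, limma adjusted p = 0.440 in the fit without the filter), which was −0.60 without Low Exploration replicate 5 and −0.66 with median centering.

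Among the proteoglycans, both probe sets of Cspg4 were lower on average in High Exploration mice without passing the test. Probe set 1450944_at gave signals of 232, 77.2, 345, 234 and 46.1 in High Exploration mice, against 309, 335, 364, 468 and 339 in Low Exploration mice. The Low Exploration values lay close together, and 4 of 5 High Exploration mice were below all of them, replicate 3 being the exception. The means were 7.19 ± 1.23 and 8.49 ± 0.23 log2, a difference of −1.30 (SE 0.51, limma adjusted p = 0.119). The difference was −0.76 with median centering and −0.88 without High Exploration replicate 5.

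The second Cspg4 probe set, 1423341_at, gave signals of 86.6, 101.1, 166, 26.8 and 104 in High Exploration mice, against 316, 203, 212, 58.3 and 203 in Low Exploration mice. All Low Exploration mice but replicate 4 exceeded every High Exploration mouse. The difference was −1.06 (SE 0.58, limma adjusted p = 0.301 in the fit without the filter), and −0.53 with median centering. NG2 is also carried by pericytes, whose other markers had differences of both signs. Of 7 pericyte genes tested, 4 had a positive and 3 a negative difference (median 0.21, and −0.05 without High Exploration replicate 4). Pdgfrb, the pericyte receptor for platelet-derived growth factor, differed by 1.28 (SE 0.40, limma adjusted p = 0.0776), and by 1.12 on its other probe set. Acta2 differed by −0.76 (SE 0.49, limma adjusted p = 0.301), and by −1.74 and −1.37 on its others. Over all 10 genes of the pericyte list, the mean log2 level spanned 8.45 to 9.08 in High Exploration and 8.22 to 9.08 in Low Exploration mice.

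Cspg5 encodes neuroglycan C, a transmembrane proteoglycan of precursors and neurons. Probe set 1450713_at ranged over 364 to 1151 (median 481) in High Exploration and 346 to 1225 (median 726) in Low Exploration mice, so that each group covered nearly the range of the other. The difference of −0.27 (SE 0.46, limma adjusted p = 0.705) was smaller than the SD within either group, 0.71 log2 in High Exploration and 0.79 log2 in Low Exploration mice. It was 0.27 with median centering.

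Ptprz1, a receptor-type tyrosine phosphatase with chondroitin sulfate chains, had 3 probe sets, all with positive differences as deposited. Probe set 1452284_at gave signals of 10654, 6775, 2703, 5193 and 3856 in High Exploration mice, against 2825, 2462, 2161, 4142 and 2933 in Low Exploration mice. The 3 highest of the 10 values were from High Exploration mice and the 2 lowest from Low Exploration mice, with replicates 3 and 5 of High Exploration inside the Low Exploration range. The means were 12.35 ± 0.76 and 11.47 ± 0.35 log2, a difference of 0.88 (SE 0.40, limma adjusted p = 0.157). It was 1.42 with median centering, 0.50 with quantile normalization and 0.63 without High Exploration replicate 1.

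Probe set 1418690_at of Ptprz1 gave signals of 3830, 2059, 600.2, 1354 and 469 in High Exploration mice, against 1232, 821, 535, 472 and 703 in Low Exploration mice, a difference of 0.81 (SE 0.55, limma adjusted p = 0.318). High Exploration replicate 1 was the highest mouse for both of these probe sets, and without it the second difference was 0.41. With median centering it was 1.35. The third, 1427019_at, ranged over 219 to 1434 in High Exploration and 199.7 to 1883 in Low Exploration mice, a difference of 0.27 (SE 0.64, limma adjusted p = 0.792) that was −0.18 without Low Exploration replicate 4 and 0.81 with median centering. Ptprz1 is shared with astrocytes, and of 12 astrocyte markers tested 9 had a positive and 3 a negative difference (median 0.44). Over all 13 astrocyte markers with a probe set, the mean log2 level spanned 10.40 to 11.17 in High Exploration and 10.04 to 10.88 in Low Exploration mice. The part of astrocyte content in the Ptprz1 values was not tested.

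**Figure D2:**
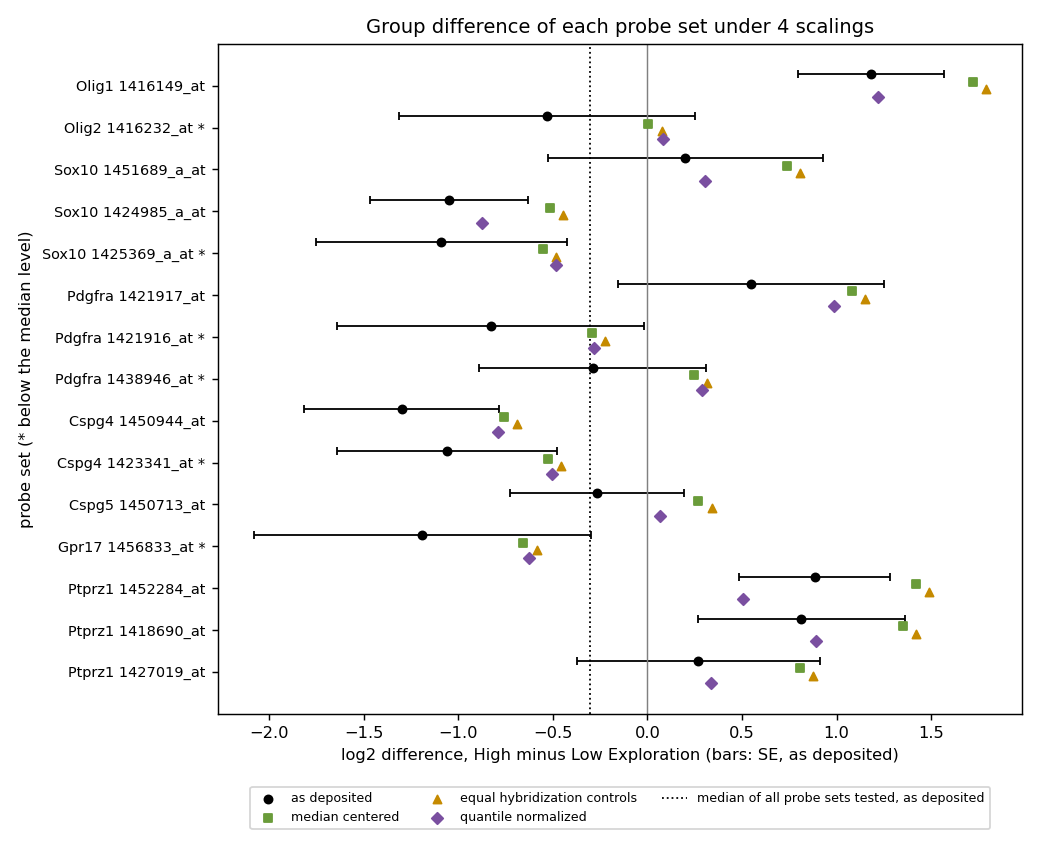
Log2 difference, High minus Low Exploration (horizontal axis), of each member probe set (vertical axis) as deposited (black, with SE from limma) and under 3 other scalings in color; asterisks mark probe sets below the median level, and the dotted line is the median of all tested probe sets, −0.31. Olig1 and all 3 Ptprz1 probe sets stay right of 0 and both Cspg4 probe sets left of 0 under each scaling shown, whereas Olig2, Cspg5 and 1 Pdgfra probe set change side.

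Because a scaling constant cancels in the ratio of 2 probe sets on the same array, the probe sets of each gene were also compared as log2 ratios within mice. Each ratio was taken over the probe set of the gene with the highest mean signal. A difference between arrays that depends on signal level does not cancel in it, and its part was not tested. A group difference in such a ratio also does not say which of the probe sets changed. There were 7 ratios, and none differed between the groups at an adjusted p under the threshold in an exact 2-sided permutation test (adjusted p = 0.611 to 0.857). For Pdgfra, the ratio of 1421916_at to 1421917_at was −2.43, −2.30, 0.13, −3.51 and −1.81 in High Exploration mice, against −1.82, −0.10, 0.26, −1.40 and 0.02 in Low Exploration mice. High Exploration replicate 3 had the sole positive ratio of its group, and the groups overlapped. The difference of −1.38 had the smallest p of the 7 (exact permutation p = 0.0873, adjusted p = 0.611). Although these probe sets share a source sequence, their ratio covered −3.51 to 0.26 over the 10 mice.

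The Sox10 probe sets on 1 source sequence, 1425369_a_at and 1451689_a_at, diverged more. Their log2 ratios were −6.06 to −1.64 in High Exploration and −5.52 to 0.14 in Low Exploration mice (difference −1.29, exact permutation p = 0.317). The ratio of −6.06, in High Exploration replicate 1, rests on a 1425369_a_at signal of 22.9, where the 10th percentile of all signals was 23.0. For 1424985_a_at over 1451689_a_at the ratio averaged −0.76 ± 1.40 in High Exploration and 0.50 ± 1.76 in Low Exploration mice (SD, n = 5 each), a difference of −1.25 (exact permutation p = 0.238). For the remaining pairs the differences were −0.84 for Pdgfra 1438946_at over 1421917_at (exact permutation p = 0.460), 0.23 for the Cspg4 pair (exact permutation p = 0.802), −0.07 for Ptprz1 1418690_at over 1452284_at (exact permutation p = 0.857) and −0.61 for Ptprz1 1427019_at over 1452284_at (exact permutation p = 0.476). The Ptprz1 pair 1418690_at and 1452284_at tracked most closely, with an SD of 0.60 log2 in High Exploration and 0.73 log2 in Low Exploration mice.

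**Figure D3:**
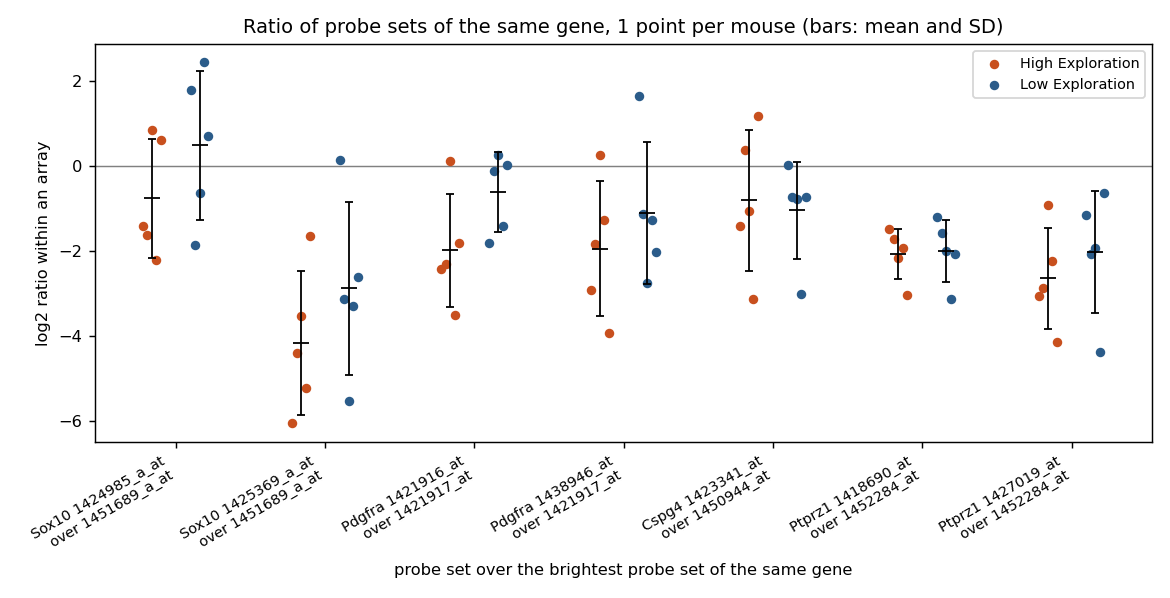
Log2 ratio of 2 probe sets of the same gene on the same array (vertical axis) for 7 pairs (horizontal axis), High Exploration mice in orange to the left and Low Exploration mice in blue to the right, 5 each, with mean and SD. The groups overlap in all 7 pairs, and the Sox10 pair 1425369_a_at over 1451689_a_at covers −6.06 to 0.14.

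The extremes of the 15 probe sets were spread over the mice. High Exploration replicate 5 held the lowest of the 10 values for 4 probe sets (Olig2, Pdgfra 1438946_at, Cspg4 1450944_at and Ptprz1 1418690_at), and Low Exploration replicate 1 for 3 (Sox10 1451689_a_at, Pdgfra 1421917_at and Pdgfra 1421916_at). Low Exploration replicate 3 held the lowest value of Olig1, Gpr17 and Ptprz1 1452284_at. High Exploration replicate 1 was the highest mouse for 3 probe sets and Low Exploration replicate 4 for 4, while High Exploration replicate 2 was at neither end for any of the 15.

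Genes around the members in the same pathways were counted on the probe set with the highest mean for each gene, and none of them passed limma's threshold. Of 12 lineage transcription factors tested, 5 had a positive and 7 a negative difference (median −0.06). With 1 mouse left out, that median ran from −0.30, without Low Exploration replicate 5, to 0.25, without Low Exploration replicate 3. At an unadjusted limma p under 0.05, 2 were positive and 1 negative, against 9.67% and 20.5% of all tested probe sets. Sox6, a factor that holds precursors in the undifferentiated state, averaged 8.13 ± 0.46 log2 in High Exploration and 9.33 ± 0.76 log2 in Low Exploration mice, a difference of −1.20 (SE 0.41, limma adjusted p = 0.0919), and its groups did not overlap. Of its 3 other probe sets, those at −1.37, 0.09 and 1.97 did not share a sign. Tcf4, an E protein that dimerizes with Olig factors, differed by 0.85 (SE 0.35, limma adjusted p = 0.129) on the probe set counted and by −0.64 to 0.47 on its 5 others.

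For platelet-derived growth factor signaling, the 4 ligand genes and Pdgfrb gave 2 positive and 3 negative differences (median −0.19). The positive ones were Pdgfrb (1.28, above) and the ligand Pdgfc, with 1.62 (SE 0.72, limma adjusted p = 0.153) on this probe set and 0.05 on its other. The 8 tested proteoglycans and ligands of PTPRZ had 3 positive and 5 negative differences (median −0.44). Contactin, encoded by Cntn1 and bound by PTPRZ, averaged 13.65 ± 0.60 log2 in High Exploration and 12.26 ± 0.68 log2 in Low Exploration mice, a difference of 1.39 (SE 0.42, limma adjusted p = 0.0742) with groups that did not overlap, and its 2 other probe sets gave 0.10 and 0.80. Tenascin-R, encoded by Tnr, differed by 0.83 (SE 0.33, limma adjusted p = 0.120). The precursor proteoglycan Vcan, versican, differed by −1.06 (SE 0.50, limma adjusted p = 0.172) on the probe set counted, of 8 for this gene. The differences of its other probe sets are not given here.

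Other genes enriched in precursors gave 5 positive and 9 negative differences of 14 tested (median −0.18). Cacng4, an AMPA receptor auxiliary subunit, averaged 7.31 ± 1.16 log2 in High Exploration and 8.77 ± 0.32 log2 in Low Exploration mice, a difference of −1.46 (SE 0.50, limma adjusted p = 0.0907) with groups that did not overlap. The other Cacng4 probe set gave −0.86. Pcdh15, a protocadherin, differed by −0.85 (SE 0.35, limma adjusted p = 0.132), and by −0.83 and −1.58 on its others. Genes of differentiating oligodendrocytes gave 3 positive and 8 negative differences of 11 tested (median −0.24). Among them the cell adhesion gene Nfasc differed by −1.05 (SE 0.40, limma adjusted p = 0.110) and the calcium channel gene Itpr2 by −0.83 (SE 0.32, limma adjusted p = 0.116). For Nfasc the other probe sets gave 0.26 and −0.53, and for Itpr2 they ranged from −0.93 to −0.23. Itpr2 also entered the test through its Low Exploration mean, 7.85 log2, its High Exploration mean being 7.02 log2. The medians of these 5 lists were negative as deposited, but their signs depended on the scaling. With median centering they were 0.48 for lineage transcription factors, 0.35 for the platelet-derived growth factor genes, 0.10 for proteoglycans and PTPRZ ligands, 0.36 for other precursor-enriched genes and 0.29 for differentiating oligodendrocytes, against 0.23 for all tested probe sets. With quantile normalization they were, in the same order, 0.213, 0.313, −0.285, −0.278 and −0.0979, against −0.009 for all tested probe sets. With 1 mouse left out, the medians of the last 4 of these lists spanned −0.41 (without High Exploration replicate 4) to −0.01 (without Low Exploration replicate 5), −0.59 (without High Exploration replicate 5) to −0.24 (without High Exploration replicate 4), −0.42 (without Low Exploration replicate 3) to −0.06 (without Low Exploration replicate 4) and −0.44 (without Low Exploration replicate 2) to −0.21 (without High Exploration replicate 1).

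Myelin genes of mature oligodendrocytes, the descendants of these precursors, gave 10 positive and 6 negative differences of 16 tested (median 0.43, and 0.28 without Low Exploration replicate 2). Over all 18 genes of this list with a probe set, the mean log2 level was 10.06 to 10.45 in High Exploration and 9.65 to 9.96 in Low Exploration mice. These ranges did not overlap as deposited, and they are not given here under another scaling. How often other sets of genes at similar levels do so is not given either. The list's median difference was 0.33 with quantile normalization, against −0.009 for all tested probe sets. Cldn11, the tight-junction claudin of myelin, averaged 9.59 ± 0.49 log2 in High Exploration and 7.80 ± 0.64 log2 in Low Exploration mice, a difference of 1.79 (SE 0.39, limma adjusted p = 0.0581) with groups that did not overlap. Ugt8a, which makes galactocerebroside, differed by 1.39 (SE 0.46, limma adjusted p = 0.0846) on the probe set counted and by −0.89 on its other, and Mbp, a major myelin protein gene, by −0.15 (SE 0.40, limma adjusted p = 0.815) on the probe set counted. The 7 other Mbp probe sets ranged from −1.60 to 0.92.

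**Figure D4:**
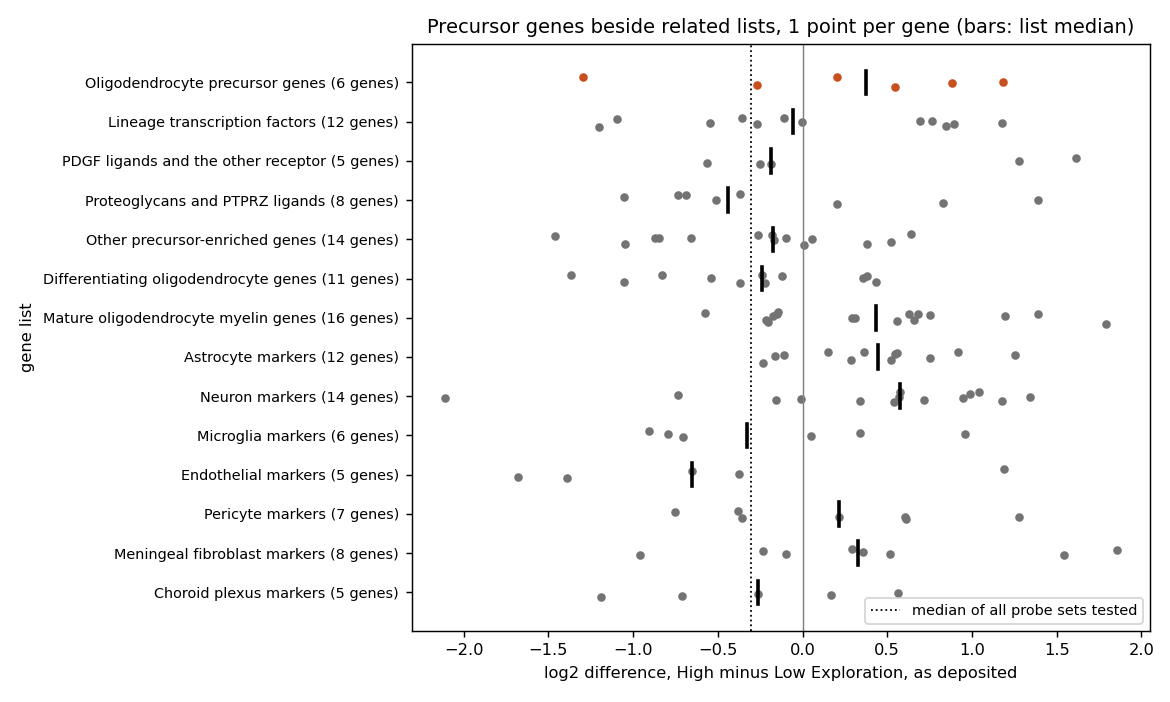
Log2 difference, High minus Low Exploration (horizontal axis), for the tested genes of each list (vertical axis), 1 point per gene, with the members in orange, and with the list's median (bar) and the median of all tested probe sets (dotted) marked. As deposited, medians are 0.43 for myelin genes, 0.44 for astrocyte and 0.57 for neuron markers, against −0.18 for other precursor-enriched genes and −0.65 for endothelial markers. With median centering all list medians but the endothelial one, −0.11, are positive. With quantile normalization those of proteoglycans and PTPRZ ligands, other precursor-enriched genes, differentiating oligodendrocytes and endothelial markers are negative.

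The markers of other hippocampal cells also had no gene past limma's threshold. Neuron markers gave 10 positive and 4 negative differences of 14 (median 0.57, and 0.38 without Low Exploration replicate 4), from 1.34 (SE 0.37, limma adjusted p = 0.0671) for the neurofilament gene Nefl, whose other probe set gave 0.07, to −2.11 (SE 0.55, limma adjusted p = 0.0644) for the glutamate transporter gene Slc17a7. Among astrocyte markers the gap junction gene Gja1 differed by 1.25 (SE 0.36, limma adjusted p = 0.0690), and by −0.73 to 1.28 on its 5 other probe sets. Endothelial markers gave 1 positive and 4 negative differences (median −0.65), microglial markers 3 and 3 (median −0.33, and −0.08 without High Exploration replicate 1) and choroid plexus markers 2 and 3 (median −0.27, and 0.09 without High Exploration replicate 1). Meningeal fibroblast markers, of interest beside Pdgfra, gave 5 positive and 3 negative differences (median 0.33). That median was −0.02 without High Exploration replicate 3 and 0.78 without High Exploration replicate 4. Over all 11 genes of the meningeal list, the mean log2 level was 8.07 to 9.59 in High Exploration and 8.36 to 8.96 in Low Exploration mice. Ogn, a fibroblast proteoglycan, differed by 1.85 (SE 0.49, limma adjusted p = 0.0652), and by 0.72 on its other probe set. The 3 negative differences of this list were those of the collagen genes Col1a1 (−0.96), Col3a1 (−0.23) and Col1a2 (−0.10) on the probe sets counted. What these cell types contribute to the members' values was not tested.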

How the data were processed

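RNA from the whole hippocampus of each mouse was purified, per the labels, on Qiagen RNA/DNA columns, labeled with biotin and hybridized to 1 array. The methods of the study also name Trizol, without assigning it to these mice, and a double round of amplification where the labels describe the standard protocol, so these steps are not settled here. The deposited values are linear MAS 5.0 signal intensity that the authors computed in Expression Console, with 1 scaling constant per array and no normalization of the distribution. Groups and tissue follow the sample labels, since the series' own design text concerns a different experiment.

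Probe sets were named from the platform annotation: 34958 had 1 symbol, 932 several and 9211 none, and 64 controls of 45101 were left out. Log2 intensity was compared with limma 3.58.1 (lmFit and eBayes, R 4.3.3) among 22518 probe sets above the median mean, p-values being adjusted by Benjamini-Hochberg and called under 0.05; the procedure was tested on simulated data. Values with 1 number per array were compared by exact 2-sided permutation. Genes named from a list were among its 2 tested genes with the smallest p. For astrocyte and meningeal fibroblast markers only 1 of these is named, and for microglial, endothelial and choroid plexus markers none. Mbp, Vcan and the collagen genes Col1a1, Col1a2 and Col3a1 were added after their values were seen. The members and lists were chosen with earlier results of these data known. Alternatives were quantile normalization, median centering, cyclic loess, equal hybridization controls, a pseudocount of 23.0, no filter, array weights, averaged probe sets and leaving out each array. Results with averaged probe sets are not given here. No 2 arrays held identical values.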

Additional observations from a re-analysis of the deposited data

Results flagged for a closer look

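In 5 of 44 groups of 5 values (30 groups of signals and 14 of within-gene ratios), the highest or lowest mouse stood apart, its gap to the nearest other mouse exceeding 0.71 of the range of its group. Chance gives such a value in about 1 in 20 groups, and the groups are not independent, since probe sets share mice. For Pdgfra, Low Exploration replicate 1 was low on both probe sets annotated to the same source sequence, at 5.762 log2 on 1421917_at (gap 0.719 of the range) and at 3.94 log2 on 1421916_at (gap 0.813). For Cspg4 1423341_at, Low Exploration replicate 4 was low at 5.867 log2 (gap 0.737). The same mouse gave the low log2 ratio of −3.004 for Cspg4 1423341_at over 1450944_at (gap 0.732). For Ptprz1 1427019_at, High Exploration replicate 5 was low at 7.773 log2 (gap 0.767).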

How the results depend on the processing

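Of 249 member differences recomputed under 17 alternatives, 228 kept their direction and side of limma's threshold, 2 (both Olig1) passed it and 19 changed sign, and 9 of the 15 probe sets never changed sign. The members past the threshold numbered 0 as deposited, 1 with median centering and 1 with array weights. Those at an unadjusted limma p under 0.05 numbered 4, and 1 with quantile normalization, 2 with cyclic loess and 2 to 4 without 1 mouse. Genes of all lists past the threshold numbered 0 of 120 as deposited, 9 with median centering, 1 with the pseudocount, 8 with array weights and 0 to 5 without 1 mouse (5 without High Exploration replicate 5). At an unadjusted limma p under 0.05, list genes numbered 27 as deposited, 42 with median centering and 43 with equal hybridization controls. Without 1 mouse they numbered 17 to 29 (17 without Low Exploration replicate 5). Of all 22518 tested probe sets, 30.2% had such a p as deposited. Shares of all tested probe sets under the alternatives other than no filter are not given here, at either threshold.

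Olig2 was 0.0829 with quantile normalization, 0.00462 with median centering, 0.114 with cyclic loess, 0.0745 with equal hybridization controls and −0.849 to 0.0851 without 1 mouse. Pdgfra 1438946_at was 0.288, 0.247, 0.333 and 0.317 under these 4 scalings and −0.661 to 0.0811 without 1 mouse. Cspg5 was 0.0675 with quantile normalization, 0.269 with median centering and 0.339 with equal hybridization controls. Without 1 mouse, Sox10 1451689_a_at spanned −0.216 to 0.644, Pdgfra 1421917_at −0.0056 to 1.12, Ptprz1 1427019_at −0.179 to 0.754, and the ratio of the Cspg4 pair −0.261 to 0.813. The ratio of Ptprz1 1418690_at to 1452284_at was 0.385 with quantile normalization and −0.355 to 0.172 without 1 mouse. The cause of these changes was not tested.

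No paired analysis was possible because the labels number mice without repeating a number across groups. With 5 arrays per group, and with members such as Olig2 and Gpr17 below the median signal, the number of arrays limits the precision; equal hybridization controls were chosen after earlier results were known.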
